A study of Mus musculus with 6 samples.

Results

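Probes named by the accession of a cDNA clone were compared between lungs of wild type mouse embryos and lungs of embryos without a functional Dppa2 gene. The members are all probes that are not controls, whose name in the scanner files begins with AK and digits, and whose signal the scanner software marked as well above background on each array of 1 group or of both. Of 41174 probes on the array 8638 carry such a name (20.98%), for 8535 accessions, and 3116 of them passed the background rule. The same rule kept 20567 of 26746 probes named by a RefSeq messenger RNA accession (NM_), which served as the comparison, and 26669 probes in all.

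Whole lungs of 3 wild type and 3 knockout embryos at E18.5, from an intercross of 15-1+/Flox, 15-2+/- mice, were measured with Cy3-labelled total RNA on a one-colour whole-genome oligonucleotide array. The wild type embryos were 15-1+/+ and 15-2+/+, where ECAT15-2 is Dppa2 and ECAT15-1 is Dppa4. The knockout embryos were 15-2-/- and also 15-1Flox/Flox, so the null Dppa2 allele went with the floxed Dppa4 allele in every knockout. The mice were a mixture of strains: per the labels, 129Sv ES cells gave the founders, C57/BL6 was used for further matings, and 1 mating was with Cre or FLPe transgenic mice whose background is unknown. The labels name neither the promoter of that transgene nor the sex or litter of the embryos.

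Accessions that begin with AK belong mostly to full-length cDNA clones made by reverse transcription of RNA from many mouse tissues. Such collections hold messenger RNAs, but also noncoding transcripts, transcripts read from the opposite strand of a gene, unspliced precursors, and clones primed inside a longer RNA. None of the 8535 AK accessions was found in the table of RefSeq genes (0 matches), so the probes are called by clone accession and no gene name is given. The table lists RefSeq accessions, so a missing match does not show that no gene lies at the clone.

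Between 63.33% and 68.82% of all probes lay well above background per array, and no spot was saturated. The lung epithelial genes Sftpc, Sftpa1 and Nkx2-1 were well above background on all 6 arrays. The log2 level of Dppa2, relative to the 75th percentile of the array, was -3.45 ± 0.18 in wild type lungs and -4.67 ± 0.51 in the knockouts (SD, n = 3), a difference of -1.22 that did not pass limma's threshold (adjusted p = 0.0602). The Dppa2 probe was well above background on all 6 arrays, knockouts included. No array had a Dppa4 signal well above background. Signals of Y-linked genes (Ddx3y, Uty and others) were above background in wild types 1 and 2 and not on the other 4 arrays, so sex was not balanced between the groups. Wild types 1 and 2 and knockout 3 shared slide 1, wild type 3 was on slide 2, and knockouts 1 and 2 were on slide 3.

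The AK probes gave weaker signals than the NM_ probes. Of the AK probes on the array 36.07% passed the background rule, against 76.9% of the NM_ probes. Among AK probes that passed, the median log2 level was -3.63 relative to the 75th percentile, against -0.46 among NM_ probes. AK probes above background numbered 3287, 3235 and 3374 in wild types 1, 2 and 3 and 3092, 3768 and 3394 in knockouts 1, 2 and 3. The groups overlapped in that number, with knockout 1 lowest and knockout 2 highest. The negative control spots had a median intensity of 6.96 in knockout 1 and of 3.32 in knockout 2, with 3.80 to 4.70 on the other 4 arrays.

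Of the 3116 AK members, 2754 were above background on all 6 arrays, 175 passed through the knockout group only and 187 through the wild type group only. Among NM_ probes the single-group passes were 142 through the knockout and 664 through the wild type group. A probe that passed through 1 group only tended to differ by selection, so these probes are also given apart below. Of the AK probes that failed, 4420 were above background on no array and 1102 on some. Near the threshold, the 362 members that passed through 1 group had a median intensity of 28.65 (quartiles 24.99 and 33.88), and the 393 AK probes that reached 2 of 3 arrays at most had one of 19.99 (17.01 and 23.58).

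As a set, AK probes had higher signals in the knockout lungs. The median intensity over AK members was 112.8, 108.2 and 126.6 in wild types 1, 2 and 3, and 160.0, 148.0 and 148.5 in knockouts 1, 2 and 3. Every knockout array lay above every wild type array. Over NM_ probes the medians were 1193, 1098 and 1175 in the wild types and 1172, 1171 and 1221 in the knockouts, and the groups overlapped. These are intensities before any scaling between arrays.

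After scaling to the 75th percentile, the median difference over the 3115 tested AK probes was 0.33 on the log2 scale, knockout minus wild type, and 2328 of them (74.74%) had a positive difference. Over the NM_ probes the median was -0.01 and 48.38% were positive, and over all 26668 probes tested the median was 0.02. The quartiles of the AK differences were -0.00 and 0.59. After quantile normalization, which gives every array the same distribution of values, the AK median was 0.22 and 68.31% were positive, against -0.02 and 46.71% for NM_ probes. One member had no usable spot in a group, because of outlier flags, and was not tested.

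Because AK probes are dim, they were set against NM_ probes of the same level. AK probes were put in 20 bins of equal number by their mean level over the 6 arrays, and in each bin the median difference of the NM_ probes was subtracted from that of the AK probes. Weighted over the bins, AK probes exceeded level-matched NM_ probes by 0.28 on the log2 scale (1.22-fold), and by 0.29 (1.22-fold) under quantile normalization. The 2 scalings moved the level-matched NM_ probes themselves, from 0.04 to -0.06, and left the gap nearly in place. The authors' deposited log2 values, which closely follow the quantile-normalized values, gave 0.28 and are no separate check. Median and spike-in scaling add 1 constant per array and cannot change such a gap.

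The gap was present from the dimmest signals up to intensities of about 873. In the 17 lowest bins, which hold 2647 AK probes, it was between 0.22 and 0.62. The next bin, up to an intensity of 1407, had a gap of 0.13. In the 2 brightest bins it was 0.02 and -0.02, and AK probes there had median differences of -0.00 and -0.08. The largest gap, 0.62, was in the dimmest bin, where the NM_ probes had a median difference of -0.19. In the other 16 of the 17 lowest bins, NM_ probes had medians between 0.03 and 0.11 under percentile scaling, and between -0.15 and -0.01 under quantile normalization.

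Spread between single arrays was then set beside this gap. Relative to the mean of the 6 arrays, the level-matched excess of AK probes was -0.20, -0.17 and -0.02 in wild types 1, 2 and 3, and 0.17, 0.15 and 0.08 in knockouts 1, 2 and 3. Wild type lungs had a mean of -0.13 ± 0.10 and knockouts one of 0.13 ± 0.05 (SD, n = 3). The groups did not overlap, and wild type 3 stood nearer to the knockouts than wild types 1 and 2 did. Under quantile normalization the values were -0.20, -0.17 and -0.02 against 0.17, 0.15 and 0.07.

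In pairs of arrays the AK probes were in excess in all 9 pairs of a knockout with a wild type lung, by 0.11 to 0.38. Pairs within the wild type group differed by 0.05 to 0.18, and pairs within the knockout group by at most 0.06 in size. The smallest value of a knockout against a wild type, 0.11, was that of knockout 3 against wild type 3, and it lay below the largest difference between 2 wild types, 0.18 for wild type 3 against wild type 1. The next values, 0.16 and 0.19, were also those against wild type 3. Against wild types 1 and 2, all 6 values were between 0.25 and 0.38.

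Within slide 1, knockout 3 exceeded wild types 1 and 2 by 0.26, the value between arrays of 1 slide. Both of those wild types carry Y-linked signal and knockout 3 does not, so sex and genotype cannot be told apart there. A fit that gave the arrays with Y-linked signal a term of their own had a gap of 0.16; wild type 3 is then the only wild type array in the contrast. With the number in the raw file names, given in the labels, as a block it was 0.11. That block compares knockout 3 with wild type 3 alone, the pair given above, so it is no separate value. Wild type 3 is also the only array of slide 2, so sex, slide and the single array cannot be told apart in these values. Without each array in turn the gap was between 0.24 and 0.33. The highest was without wild type 3, where every wild type left carried Y-linked signal.

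Among the single AK probes, 85 were called higher and 10 lower in the knockout lungs (limma, Benjamini-Hochberg adjusted p under 0.05 over all 26668 probes), which is 2.73% and 0.321% of those tested. Of all probes 0.765% were called higher and 0.604% lower, 1.37% together. NM_ probes weighted to the AK levels were called higher in 0.825% and lower in 1.14%. Under quantile normalization 30 AK probes rose and 11 fell (0.963% and 0.353%), against 0.326% and 0.66% of all probes (0.986% together). Median scaling split the AK calls as 46 and 20, the authors' deposited log2 values as 29 and 10, and spike-in scaling as 653 and 11. Over all probes these 3 settings gave 395, 251 and 1939 calls. At an unadjusted p under 0.05, 1254 AK probes were higher and 151 lower under percentile scaling (40.3% and 4.85%, against 15.5% and 9.45% of all probes). Under quantile normalization they were 916 and 225 (29.4% and 7.22%, against 12.2% and 10.8%).

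The median difference of all tested probes moves with these scalings. It was 0.02 with the 75th percentile, 0.00 with quantile normalization, -0.11 with median scaling and 0.28 with spike-in scaling. The AK median was positive under each of them, at 0.33, 0.22, 0.21 and 0.59. Of the 85 AK probes that rose under percentile scaling 29 also rose under quantile normalization, 34.12% of the former and 96.67% of the 30. All 85 kept a positive difference there, and their adjusted p was at most 0.0915. Of the 10 that fell, 7 also fell under quantile normalization (70% of the 10 and 63.64% of the 11).

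How many AK probes were called depended on which arrays were used. The calls over all 26668 probes, 365 in the fit of all 6 arrays, moved with them. Without wild type 1, 7 AK probes were higher and 2 lower, of 40 calls over all probes. Without wild type 2 there were 10 and 3 of 64, and without wild type 3 there were 611 and 32 of 2228. Without wild type 3, every wild type left carried Y-linked signal and no knockout did. Sex and genotype cannot be told apart in that fit. Leaving out knockout 1 gave 6 and 4 of 86, leaving out knockout 2 gave 12 and 3 of 97, and leaving out knockout 3 gave 115 and 9 of 532. The fit with a term of its own for the arrays with Y-linked signal called 1 and 2 AK probes (470 and 70 at an unadjusted p under 0.05), of 24 calls in all, and slide as a block gave 2 and 3 of 29. Within slide 1, where 1 knockout array is assumed to vary like the pair of wild types, 431 and 74 were called, of 1931 in all.

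Every knockout array lay above every wild type array for 1168 of the tested AK probes (37.5%), and below for 207 (6.65%). Over all probes these shares were 17.4% and 13.3%, and over NM_ probes weighted to the AK levels 17.8% and 12.1%. Under quantile normalization the AK shares were 28.2% and 8.93%, against 14.6% and 14.2% of all probes. Differences of at least 2-fold were found in 144 AK probes upward (4.62%) and 29 downward (0.931%), against 1.6% and 1.41% of all probes. Among NM_ probes weighted to the AK levels the shares were 2.18% and 3.03%. Under quantile normalization these were 93 and 37 AK probes (2.99% and 1.19%), against 1.08% and 1.79% of all probes. The level-weighted NM_ shares were then 1.40% and 4.05%. The median standard error of a difference was 0.17 for AK probes and 0.16 for level-matched NM_ probes.

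The 2753 tested AK probes above background on all 6 arrays had a median difference of 0.33, with 67 higher and 5 lower. The 19761 NM_ probes that met the same condition had -0.01, with 74 higher and 105 lower. Under quantile normalization these AK probes had a median of 0.22, with 20 higher and 6 lower. Those NM_ probes had -0.01 there, with 35 higher and 112 lower. Of all 26668 probes tested, 0.765% were called higher and 0.604% lower under percentile scaling, and 0.326% and 0.66% under quantile normalization. With the filter and the bins rebuilt on probes above background on all 6 arrays alone, the gap was 0.25. AK probes that passed through the knockout group only had a median of 0.91 and NM_ probes of that kind 0.91, as the selection sets. Those that passed through the wild type group only had -0.20 (AK) and -0.33 (NM_). Of the 85 AK probes called higher, 18 passed through the knockout group only, and 6 of these had no wild type array above background. Of the 10 called lower, 5 passed through the wild type group only. These calls are set in part by the selection.

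Clone AK051620 had the smallest p among the AK probes that rose, and was above background on all 6 arrays. Its log2 levels were -3.06, -2.98 and -2.60 in wild types 1, 2 and 3, and -0.85, -0.92 and -0.53 in knockouts 1, 2 and 3. The groups lay far apart against the spread within them. The difference was 2.11 (SE 0.17, 4.32-fold, 95% confidence interval 1.72 to 2.51; limma adjusted p = 0.00502), and 2.04 under quantile normalization. Over the alternatives limma's adjusted p was 0.000841 at its lowest. The call was lost with the block for raw file numbers and with the term for wild types 1 and 2. The file number block compares knockout 3 with wild type 3 alone, and the term leaves wild type 3 as the only wild type. The file number block also gave the highest adjusted p in the ranges given for other clones below.

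AK047753 and AK048202 were well above background in the knockout lungs and on no wild type array. AK047753 was at -7.44, -8.38 and -7.37 in the wild types, none well above background, and at -4.67, -4.96 and -5.08 in the knockouts, so it was at least 3.02-fold higher. AK048202 was at -8.82, -7.23 and -8.88 against -4.85, -5.29 and -4.91, at least 2.79-fold higher. These bounds set the wild type arrays to the lowest signal called well above background on each array. Both clones passed the background rule through the knockout group only. Limma's adjusted p (0.0108 for AK047753 and 0.0234 for AK048202) rests on wild type values below background, so it is given as a description and supports no rise. Over 22 alternatives the call was lost in 4 for AK047753 and in 10 for AK048202.

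AK122557, a smaller rise called under both scalings, had levels of -3.42, -3.53 and -3.23 in the wild types and -2.28, -2.39 and -2.32 in the knockouts. The difference was 1.06 (SE 0.12, 2.09-fold; limma adjusted p = 0.0164), with no overlap between groups. It was lost in 8 of 23 alternatives, among them without wild type 1 (adjusted p = 0.0977), without wild type 2 (0.0707) and without knockout 1 (0.0602), with a range of 0.00863 to 0.494 over all of them. The 85 AK probes called higher had differences between 0.57 and 3.30, and the 10 called lower had sizes between 0.93 and 2.75.

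Clone AK164165 has 3 probes on the array. The probe A_51_P325651 was at -0.46, -0.88 and -0.96 in wild types 1, 2 and 3, and at 0.70, 0.68 and 0.80 in the knockouts, a rise of 1.497 (SE 0.15, limma adjusted p = 0.0124). The probe A_51_P200535 differed by -0.10 (95% confidence interval -0.40 to 0.19) and the probe A_52_P166435 by -0.17 (-0.51 to 0.17), and neither passed. All 3 probes were above background on all 6 arrays. The call was lost in 5 of 22 alternatives, among them slide as a block (adjusted p = 0.0831), the term for wild types 1 and 2 (0.0640) and without wild type 2 (0.0583), with a range of 0.00201 to 0.235 over all of them. The rise was seen with 1 of the 3 oligonucleotides, and the differences between them were not tested.

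Among the probes that fell, AK019912 had the smallest p. Its levels were -1.07, -0.84 and -0.67 in wild types 1, 2 and 3, and -3.69, -3.28 and -2.91 in knockouts 1, 2 and 3. All knockouts were lower, with a difference of -2.43 (SE 0.21, 5.401-fold lower; limma adjusted p = 0.00761), and of -2.525 under quantile normalization. The call was lost in 3 of 23 alternatives: slide as a block (adjusted p = 0.0702), the term for wild types 1 and 2 (0.0640) and the block for raw file numbers (0.160), and limma's adjusted p was 0.00105 at its lowest. AK030594 was at -1.72, -1.70 and -1.85 against -2.87, -3.14 and -2.99, a difference of -1.24 (SE 0.12, adjusted p = 0.00936 by limma). It lost its call in 5 of 23 alternatives, among them slide as a block (0.0827), the term for wild types 1 and 2 (0.123) and without wild type 1 (0.0682), with adjusted p from 0.00396 to 0.416 over all of them.

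AK006388 fell by 1.38 (SE 0.16, limma adjusted p = 0.0169), from -3.62, -3.80 and -3.31 in the wild types to -5.12, -4.85 and -4.90 in the knockouts. It lost its call in 7 of 23 alternatives, among them slide as a block (0.0943), the replicate block (0.05004), the term for wild types 1 and 2 (0.0567) and without wild type 1 (0.0948), with adjusted p from 0.0121 (limma) to 0.2297 over all of them. AK008094 was at -2.24, -2.56 and -3.94 in wild types 1, 2 and 3, with wild type 3 well below the others, and at -6.23, -4.96 and -5.82 in the knockouts. It passed the background rule through the wild type group only, and 2 of 3 knockout arrays were above background, so its levels are a description. Its call in the fit (limma adjusted p = 0.0495) was lost in 15 of 22 alternatives, over which the adjusted p ran from 0.00309 to 0.841. A second AK008094 probe was above background on 1 array and was not tested.

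The 5 brightest AK probes did not pass the test. AK002987 was highest, at 6.67, 6.77 and 6.70 in the wild types and 6.66, 6.81 and 6.67 in the knockouts, a difference of 0.00 (95% confidence interval -0.24 to 0.25). AK003646 differed by -0.20 (-0.48 to 0.08), AK003452 by -0.22 (-0.47 to 0.04), AK046316 by -0.00 (-0.27 to 0.27) and AK004787 by -0.13 (-0.45 to 0.19).

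Some clones are read by more than 1 probe. Of the AK accessions 99 are of this kind, and for 40 at least 2 probes were members. In 25 of the 40 the first 2 probes had differences of the same sign, 18 of them positive in both and 7 negative in both. Of all tested AK probes 74.74% had a positive difference, so unrelated AK probes would often share a sign as well. Across these 40 clones the differences of the first and the second probe had a Pearson correlation of 0.60, with a median gap of 0.20 in size. Both probes come from the same 6 arrays, so the correlation is a description across clones. In 3 clones 1 of the pair was called and in 0 both were.

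Other kinds of names were set against NM_ probes in the same way, with 10 bins, where AK probes gave 0.28. Probes named by a BC accession, which also denotes cloned cDNAs, exceeded level-matched NM_ probes by 0.17 (297 tested), and those whose names begin with NAP by 0.17 (693). Curated noncoding transcripts (NR_) exceeded them by 0.06 (261), model transcripts (XM_ or XR_) by 0.07 (394), and Ensembl transcripts (ENSMUST) by 0.02 (703). Under quantile normalization the values were 0.17, 0.17, 0.05, 0.06 and 0.02, and 0.28 for AK. Differences between the classes of names were not tested.

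Within the AK probes the excess is given by blocks of accession number. Accessions from AK030000 to AK059999 (1364 tested) exceeded level-matched NM_ probes by 0.38, and 52 were called higher and 2 lower (3.81% and 0.147%, against 0.765% and 0.604% of all probes). Those from AK060000 to AK099999 (697) exceeded them by 0.30, with 15 and 2 called (2.15% and 0.287%). Accessions below AK030000 (722) exceeded them by 0.14, with 13 and 5 called (1.80% and 0.693%), and those of AK100000 and above (332) by 0.17, with 5 and 1 (1.51% and 0.301%). Under quantile normalization the calls were 5 and 4 (0.693% and 0.554%), 19 and 2 (1.39% and 0.147%), 3 and 4 (0.430% and 0.574%), and 3 and 1 (0.904% and 0.301%) in order of accession. Of all probes 0.326% were called higher and 0.66% lower there, and the block from AK060000 lay near these shares. The 2 outer blocks also had brighter signals, with median levels of -2.97 and -2.32, against -3.93 in both middle blocks. Under quantile normalization the 4 gaps were 0.14, 0.38, 0.30 and 0.16 in order of accession. The edges of the blocks were set after the files were seen, and the differences between blocks were not tested.

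The array carries probes of 2 name series, A_51 and A_52, and the excess was present in both. Among A_51 probes 931 AK probes exceeded NM_ probes of the same series and level by 0.24, and among A_52 probes 2184 AK probes did so by 0.29. Under quantile normalization these values were 0.24 and 0.29.

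Nuclear noncoding RNAs from a list of 10 genes gave a comparison with named transcripts, each by its brightest probe. Of 7 with a probe, 3 had positive differences and 0 passed limma's threshold (2 higher and 0 lower at an unadjusted p under 0.05). Malat1, an abundant RNA of nuclear speckles, differed by 0.51 (SE 0.14, adjusted p = 0.0945), at 1.69, 1.80 and 1.99 in the wild types and 2.39, 2.49 and 2.14 in the knockouts. Kcnq1ot1, the antisense RNA of an imprinted domain, differed by 0.497 (limma adjusted p = 0.156), and its groups all but met, at 0.45 in wild type 3 and 0.46 in knockout 3. Neat1, the scaffold of paraspeckles, differed by -0.17, Meg3 by -0.03 and Airn by -0.18. Over 163 probes that RefSeq assigns to long noncoding RNAs the median difference was 0.04, without matching by level. The named RNAs were not matched by level either. Malat1, Neat1, Meg3, Kcnq1ot1 and Tug1 lay at the levels of the 2 brightest bins, where AK probes had gaps of 0.02 and -0.02. Whether noncoding RNAs share the AK excess was therefore not tested.

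Of the cell markers listed for this tissue, only genes of the cardiac muscle list passed limma's threshold. Myl7, Myl4, Nkx2-5 and Tnnt2, genes of heart muscle, fell, and Myh6 differed by -0.48 and did not pass. The summed signal of the 5 was 22.4 to 24.0 times the 75th percentile in wild type and 8.22 to 10.3 times in knockout lungs. In the lists for lung epithelium, endothelium, fibroblasts and smooth muscle, macrophages, erythroid cells and lymphocytes 0 of 23 genes passed in limma's test (2 higher and 6 lower at an unadjusted p under 0.05). Their summed signals overlapped between groups except for the macrophage list (2 genes, 4.09 to 6.45 in wild type and 3.04 to 3.91 in knockout lungs) and the lymphocyte list (1 gene tested). A sum weighs the brightest gene most, which for lung epithelium was Sftpc (difference 0.12). Only 1 of the 9 epithelial genes had a positive difference (median -0.36), and 3 of 4 endothelial genes did. Scgb1a1 differed by -1.73 (limma adjusted p = 0.073), Aqp5 by -1.10 (0.083) and Lyz2 by -1.095 (0.075), each without overlap between groups. The part of the makeup of the tissue in the AK signals was not tested, and in whole lung RNA fewer cells of a type and less RNA per cell cannot be told apart.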

How the data were processed

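Per the file headers, arrays were quantified with Agilent Feature Extraction 10.7.3.1 on a design that refers to mm9. The deposited intensity is the software's processed signal of each spot, corrected for background within its array, and arrays are not scaled to each other. The authors' deposited log2 values were used as an alternative; they correlated at 0.992 to 0.997 per array with quantile-normalized values set relative to the wild type median. GeneSpring GX 11 is named by the design text, and the scaling method is not given in the sources used here.

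Spots with outlier flags (77 to 110 per array) were left out, spots of a probe were averaged, and the 75th percentile of each array was subtracted on the log2 scale. Most probes have 1 spot. One limma fit (version 3.58.1, R 4.3.3; lmFit and eBayes, two-sided, no covariate) covered all probes past the background rule. Differences are knockout minus wild type. Intervals are at 95%. The labels do not say that embryos came from separate litters, so p-values measure the spread between these samples.

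Members and lists were chosen with earlier results of these data known. Probes open to naming were set by rule: the 10 of largest rise and fall, those of smallest p called under both scalings, the 5 brightest, and other probes of the same clones. Of the 30 probes that the first parts of the rule gave, 14 are printed, and the rest are within the ranges given. The rule does not say which of the 30 to print. Those left out include AK045213 (difference 2.35) and AK086756 (-2.49), both called under both scalings. The level-matched comparison is a description with no test. The scripts were tested on simulated data. Alternatives were other scalings, background corrections, filters, blocks, matching rules and the removal of each array. Probe sequences, positions and clone descriptions were not used here, so clones were not grouped by source tissue or product as had been planned.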

Additional observations from a re-analysis of the deposited data

How the results depend on the processing

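The excess of AK over level-matched NM_ probes was positive in the 26 alternatives run, from 0.11 to 0.33. Of these, 4 could not change it by construction: median scaling, spike-in scaling, the replicate block and the AK accessions with no RefSeq match, which were all of them. Slide as a block and the fit within slide 1 rest on the same arrays, and the deposited values closely follow quantile normalization. The 26 are therefore not all separate checks. It was smaller with normexp background correction (0.16), an added offset of 50 (0.18), no background filter (0.18), the term for wild types 1 and 2 (0.16) and a block for the number in raw file names (0.11). Leaving out each array gave 0.24 to 0.33. The AK median difference was 0.22 with quantile normalization, 0.21 with median scaling, 0.21 with the authors' deposited values, 0.59 with spike-in scaling, 0.18 with normexp, 0.19 with the offset, 0.21 with the term for wild types 1 and 2 and 0.15 with a block for the number in raw file names.

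With quantile normalization 30 AK probes were called higher and 11 lower, of 263 calls over all probes. The counts were 46 and 20 of 395 with median scaling, 29 and 10 of 251 with the deposited values, and 653 and 11 of 1939 with spike-in scaling. With the negative control median subtracted they were 52 and 7 of 251. The counts were 96 and 6 of 392 for probes above background on all 6 arrays and 23 and 3 of 113 for at least 1 array. With no filter, where more probes are tested, they were 7 and 1 of 35. They were 2 and 3 with slide as a block, 431 and 74 within slide 1, 1 and 2 with the term for wild types 1 and 2, and 0 and 0 by limma with the block for raw file numbers (262 and 69 at an unadjusted p under 0.05). The block for raw file numbers called 0 probes of any kind. Over the removal of single arrays the AK counts ran from 6 to 611 higher and from 2 to 32 lower, beside 40 to 2228 calls over all probes. The cause of these changes was not tested.

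With the replicate block, the AK counts were 11 higher and 3 lower, of 79 calls over all probes, and a balanced block leaves the differences as they are. The deviations of same-numbered arrays had correlations of -0.02, 0.03 and 0.02, and 1 of 3 wild types correlated best with the knockout of its own number. These values gave no sign of a pairing. They cannot show whether same-numbered embryos shared a litter, which the labels do not give.

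Slides 2 and 3 each hold 1 group and give no value of their own. In the normexp setting, spots with an outlying local background took the array's median background. Subtraction of the negative controls, the offset and the file name block were chosen after seeing the data. Dim signals limit the precision: 362 of the 3116 members were above background on all arrays of 1 group only.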
